A study of Rattus norvegicus with 458 samples.

Results

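The miRNAs miR-322, miR-503, miR-351, miR-542 and miR-450a come from hairpins that lie side by side on the minus strand of the rat X chromosome. Their reads were examined in 23 tissues of naïve Sprague Dawley rats of 12 to 13 weeks of age. A name was taken as a member when a part of it was one of these miRNAs with any arm suffix, and entries for whole precursors were left out. This rule gave 17 of 7534 names in the deposited table, and 12 of the 17 reached a mean of 1 CPM (the reads of a name per 1000000 reads of the library) in at least 1 tissue. The other 5 names held 40 counts in all. They were miR-450a-2-3p and 4 composite names that join a predicted miRNA with miR-351-5p, miR-450a-5p or miR-450a-2-3p, with 34 counts or fewer each. The members were chosen by their tissue levels in these same libraries, which were known to be high in the adrenal and the ovary, so these levels are given as a description, with no test.

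Tissues came from 5 male rats (rats 2 to 6) and 5 female rats (rats 7 to 11), none of them treated, as part of an atlas of organs that are often injured in toxicology studies. Testis came from males only, and ovary and uterus from females only. The dorsal root ganglion (DRG) was represented by 1 pool of 5 females and 1 pool of 5 males, each prepared as 5 technical libraries, which were summed to 1 value per pool, so that its 2 values do not show the spread between animals. Its RNA came from another laboratory, per the study's methods. Each tissue was taken as a bulk piece, in which fewer cells of a type and less RNA per cell cannot be told apart.

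A miRNA hairpin is cut by Dicer into a 5p and a 3p strand, of which 1 is usually kept by an Argonaute protein, and the bases 2 to 8 of the kept strand, called the seed, pair with target mRNAs. miR-322 is the rodent counterpart of human miR-424. With miR-503 it belongs to the extended miR-15/16 family, which is known for repressing genes that drive the cell cycle, and both are known to rise when myoblasts leave the cycle and differentiate. miR-351 carries the seed of the miR-125 family, whose other members come from hairpins on autosomes. Neighbouring hairpins such as these are usually transcribed together and then processed one by one, so that the amounts of the mature strands can still differ.

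The more counted mature strands of the 5 hairpins are shown because both the shared seeds and the differences between 5p and 3p strands are used in what follows. They were taken from RefSeq on the GRCr8 build, read 5′ to 3′ with the seed in capitals. In the direction of transcription, Mir322 (chrX:137726147-137726241) was followed by Mir503 (chrX:137725856-137725926), Mir351 (chrX:137725116-137725196), Mir542 (chrX:137722176-137722254) and Mir450a1 (chrX:137720933-137721023), all on the minus strand. The 5 hairpins spanned 5309 bases, with gaps of 220, 659, 2861 and 1152 bases. In the annotation a long non-coding RNA gene, LOC102550366, spans the hairpins of miR-351, miR-503 and miR-322, and Mir450b-1 lies between Mir542 and Mir450a1.
miR-322-5p: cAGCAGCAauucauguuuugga
miR-322-3p: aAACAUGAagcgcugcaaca
miR-503-5p: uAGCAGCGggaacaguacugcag
miR-503-3p: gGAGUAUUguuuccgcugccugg
miR-351-5p: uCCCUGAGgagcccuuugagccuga
miR-542-5p: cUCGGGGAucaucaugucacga
miR-542-3p: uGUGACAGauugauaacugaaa
miR-450a-5p: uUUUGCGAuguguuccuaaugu

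The seeds that members share with miRNAs from other chromosomes are shown next, since reads of those miRNAs set how much of a seed a member supplied. miR-322-5p has the seed of miR-16-5p (hairpin on chromosome 2) and of miR-195-5p (chromosome 10), and differs from both after it. miR-351-5p has the seed of miR-125a-5p (chromosome 1) and miR-125b-5p (chromosome 11). The seed of miR-503-5p differs from that of miR-322-5p at its last base only.
miR-16-5p: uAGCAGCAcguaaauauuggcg
miR-195-5p: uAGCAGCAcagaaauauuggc
miR-125a-5p: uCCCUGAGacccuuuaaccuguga
miR-125b-5p: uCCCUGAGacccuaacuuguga

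After runs were summed per library, 215 libraries were at hand and 205 were used, with library totals of 376401 to 17725805 counts and a median of 4816409. The testis libraries were the shallowest, at 376401 to 653651 counts. The limit that a count of 0 allows, 3 counts, was 7.97 CPM in the shallowest testis library and 0.169 CPM in the deepest library of all. Of the left-out libraries, 4 were from the duodenum (rats 2, 4, 7 and 11), 3 from the hippocampus (rats 2, 6 and 7), and 1 each from the adrenal (rat 8), the ovary (rat 11) and the uterus (rat 8). The rule that defined the members names these libraries, in which members often lay far outside the range of the other libraries of the same label. In the libraries used, markers such as miR-122-5p in liver, miR-208a-3p in heart and miR-206-3p in soleus were highest in their own tissue. miR-202-5p, a miRNA of the gonads, was at 4369 CPM in testis, 662 CPM in ovary and 8.09 CPM in adrenal.

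miR-322-5p, the guide strand that carries the miR-16 seed, was counted in every one of the 205 libraries. In the ovary it was at 5685 CPM in rat 7, 10049.5 CPM in rat 8, 1664 CPM in rat 9 and 6489 CPM in rat 10, a mean of 5972 ± 3442 CPM (SD, n = 4). In the adrenal the lowest of 9 libraries was at 1875 CPM, the median at 2507 CPM and the highest at 4614 CPM, a mean of 3025 ± 1023 CPM. The ovary of rat 9 was below every adrenal library, and the other ovaries were above every one of them. Heart followed at 1297 ± 211 CPM (n = 10), between 991 and 1570 CPM, and testis at 1027 ± 134 CPM (n = 5), between 815 and 1127 CPM. The slow soleus muscle came next with 651 ± 84.0 CPM (n = 10). The order for miR-322-5p was thus led by ovary, adrenal, heart, testis and soleus. Levels of 404 CPM in liver, 328 CPM in biceps femoris, 298 CPM in brainstem, 262 CPM in kidney cortex, 252 CPM in the DRG and 249.8 CPM in cerebrum came next, each tissue overlapping with its neighbour in the order. Among neighbours in the order of the 23 tissues, only 3 of 22 pairs had libraries that did not overlap, namely adrenal over heart, testis over soleus, and ileum over non-glandular stomach.

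At the low end, miR-322-5p was at 71.9 CPM in glandular stomach, 65.3 CPM in jejunum and 59.8 CPM in ileum. Non-glandular stomach held 27.0 CPM. Whole blood was last, with a lowest library of 1.21 CPM, a median of 3.65 CPM and a highest of 25.2 CPM, so that the blood values rest on 7 to 159 counts, against 8675 to 34280 counts in the adrenal. CPM is a share of the library, and a single miRNA filled much of some of these libraries. miR-486 held on average 86.1% of blood reads in females and 84.3% in males. miR-143-3p was at 840799 CPM in non-glandular stomach, and miR-215 at 386398 CPM in jejunum. The part of such reads in the low levels of members was not tested. The mean of the ovary was 28.4 times, and that of the adrenal 14.4 times, the median of the other 21 tissue means.

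miR-322-3p, the opposite strand of the same hairpin, was also highest in the ovary, with 1083, 1463, 601 and 1300.04 CPM in rats 7, 8, 9 and 10 and a mean of 1111 ± 374 CPM. The adrenal libraries lay between 561 and 923 CPM with a median of 785 CPM, a mean of 769.6 ± 119 CPM, and overlapped with the ovary of rat 9 only. Below them came testis at 201 CPM, the DRG pools at 172 and 208 CPM and heart at 156 CPM, each overlapping with its neighbour. The order of this strand was therefore not that of miR-322-5p, in which heart was above testis and the DRG pools were in the middle.

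miR-351-5p supplied 58.6% of all member reads, more than any other member. In the adrenal its lowest library was at 12646 CPM, the median at 20534 CPM and the highest at 28132 CPM, a mean of 19694 ± 4927 CPM (n = 9). In the ovary it was at 6719 CPM in rat 7, 10815 CPM in rat 8, 10552 CPM in rat 9 and 7631 CPM in rat 10, a mean of 8929 ± 2063 CPM. Every adrenal library was above every ovary library, and every ovary library above every testis library. Testis held 2250.2 ± 559 CPM, between 1491 and 2935 CPM. The adrenal mean was 38.2 times, and the ovary mean 17.3 times, the median of the other tissue means.

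Below testis, the DRG pools were at 1273 and 1550.4 CPM of miR-351-5p. Kidney cortex and brainstem at 939 CPM each, kidney at 919 CPM, biceps femoris at 877 CPM, heart at 849 CPM, cerebrum at 777 CPM and soleus at 771 CPM then formed a run of tissues in which neighbours overlapped. Heart, which was next to the adrenal for miR-322-5p, was thus in the middle of this run. Uterus, at 211 CPM, was above every library of glandular stomach, the next tissue. The gut was low, with 61.9 CPM in ileum, 51.7 CPM in duodenum and 50.3 CPM in jejunum. Whole blood was lowest, between 7.08 and 37.4 CPM with a median of 14.3 CPM.

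**Figure D1:**
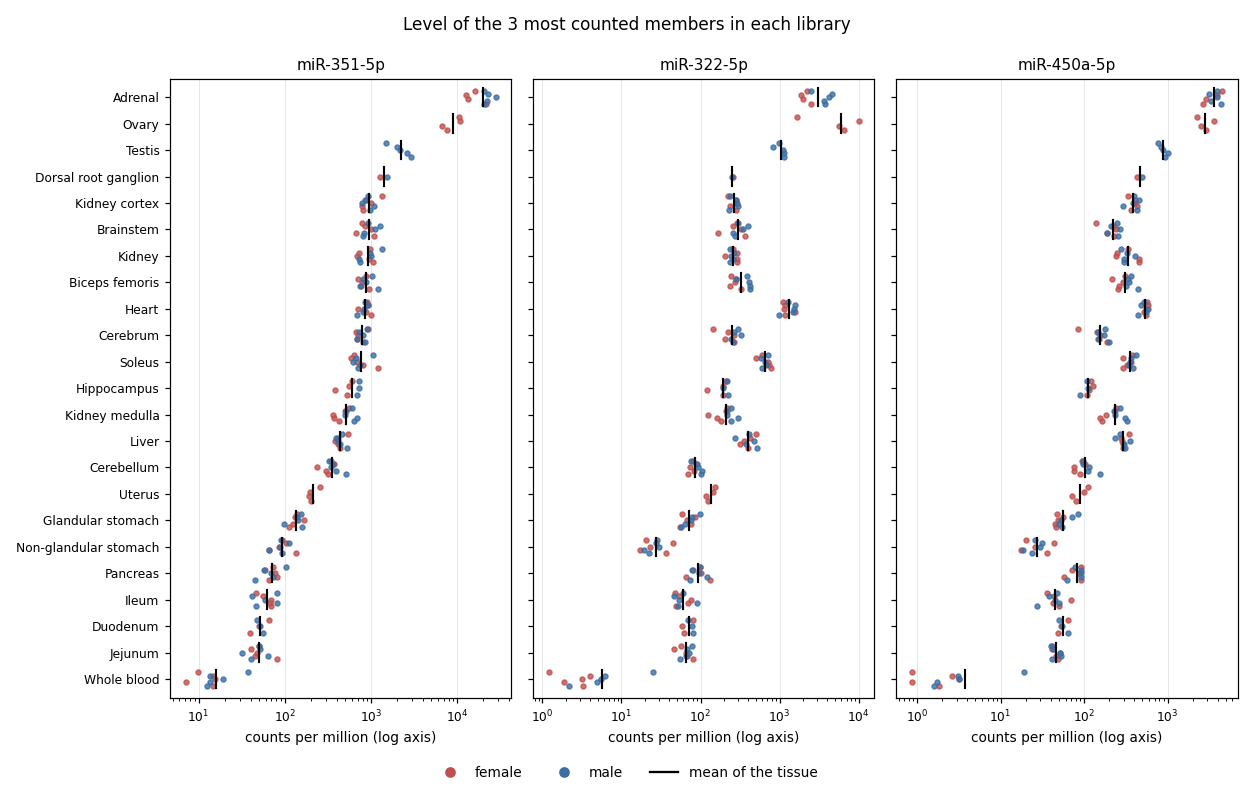
Level of miR-351-5p, miR-322-5p and miR-450a-5p in CPM, on a log axis, by tissue, with a point per library (per pool in the dorsal root ganglion) coloured by sex and a bar at the tissue mean. The adrenal and the ovary stand above the other tissues in all 3 panels, heart follows them in the miR-322-5p panel at 1297 CPM, and whole blood is at the bottom.

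Tissues of the same organ system could be set side by side. Of the 2 limb muscles, soleus held 496 to 773 CPM of miR-322-5p and biceps femoris 234 to 426 CPM, without overlap. For miR-351-5p, at 586 to 1222 CPM in soleus and 699 to 1202 CPM in biceps femoris, the same muscles overlapped almost wholly. In the brain, cerebellum held 69.9 to 104 CPM of miR-322-5p, below every library of hippocampus (121 to 224 CPM), cerebrum (144 to 326 CPM) and brainstem (166 to 397 CPM). For miR-351-5p cerebellum (235 to 519 CPM) overlapped with hippocampus (380 to 735 CPM), while cerebrum and brainstem began at 676 and 673 CPM. In the kidney, miR-351-5p was at 367 to 684 CPM in the medulla and 778 to 1333 CPM in the cortex, without overlap, whereas miR-322-5p overlapped, at 124 to 299 CPM and 221 to 298 CPM. The non-glandular stomach has a squamous lining, but its bulk piece also held 840799 CPM of miR-143-3p, a miRNA of smooth muscle. For miR-322-5p the non-glandular stomach was at 17.3 to 44.9 CPM and the glandular stomach at 55.8 to 99.7 CPM, without overlap. Here miR-351-5p overlapped, at 65.6 to 135 CPM and 97.0 to 166 CPM. In muscle, kidney and stomach, thus, the libraries of the 2 tissues were apart for 1 of these strands and overlapped for the other.

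miR-450a-5p, the last guide strand of the cluster, held 14.3% of member reads. The adrenal libraries were between 2692 and 4496 CPM with a median of 3919 CPM, and the ovaries of rats 7, 8, 9 and 10 at 2545, 3621, 2240.1 and 2856 CPM, so that the ranges overlapped. Testis at 890.3 CPM, heart at 538 CPM and the DRG at 463 CPM followed. A composite entry that joins a predicted miRNA on the X chromosome with miR-450a-5p held a further 2.79% of member reads. The most counted sequences of the 2 entries are shown because they differ at a single base, G21A counted from the 5′ end of the miR-450a-5p sequence, here in capitals.
miR-450a-5p: ttttgcgatgtgttcctaatGt
composite entry: ttttgcgatgtgttcctaatAt
The composite entry had the same tissue pattern, with 694 CPM in adrenal, 658 CPM in ovary, 158 CPM in testis and 106 CPM in heart. Over tissues the median was 0.191 composite reads per miR-450a-5p read. The study's supplement gives this composite name as an example of a sequence with potentially separate sources, a predicted miRNA on the X chromosome and miR-450a. Because the sequences are nearly identical, reads may have been split between these names by the counting, and the levels of each are uncertain to that extent.

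miR-542 gave reads from both arms. miR-542-3p was at 462, 714, 505 and 684 CPM in the ovaries of rats 7, 8, 9 and 10, a mean of 591 CPM, and between 447 and 599.7 CPM in the adrenal, a mean of 516 CPM. The 2 organs overlapped and both were above testis, at 172 CPM. miR-542-5p was at 128 to 204 CPM in the adrenal, above every other library, and at 90.1, 114, 28.7 and 113 CPM in the same 4 ovaries. Of miR-503, whose 5p strand carries a seed close to that of miR-16, more 3p than 5p reads were counted. miR-503-3p was at 110 to 164 CPM in the adrenal and 67.5 to 90.8 CPM in the ovary, with 26.9 CPM in heart, the next tissue. miR-503-5p reached 21.6 CPM in ovary and 12.0 CPM in adrenal, and was counted in 172 of 205 libraries. The rare strands miR-351-3p and miR-450a-3p had means of 4.46 and 6.19 CPM in the adrenal and 4.79 and 4.54 CPM in the ovary.

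All member reads together were 2.87% of the reads of an adrenal library on average, with a range of 2.02% to 3.87%, and 2.03% of an ovary library, from 1.66% to 2.76%. Testis followed with 0.477%, heart with 0.303% and the DRG with 0.255%, and whole blood was last with 0.00294%. Over all libraries the members were 0.308% of the reads. Every adrenal and every ovary library was above every library of the other tissues for 8 of the 12 members, against 8 of 1536 names in all, or 0.521%, a contrast that the choice of members used. These 8 were miR-322-5p, miR-322-3p, miR-351-5p, miR-450a-5p, miR-450a-3p, the composite miR-450a-5p entry, miR-542-3p and miR-503-3p. The adrenal alone was above all other tissues for miR-351-5p, miR-542-5p and miR-503-3p, with 0.781% of all names doing so, and the ovary alone for 0 of 12, with 0.13%. Whole blood was below every other tissue for 4 of 12 members, with 5.14% of all names doing so.

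The left-out libraries change these means. With them, the adrenal mean was 17729 CPM for miR-351-5p and 2729 CPM for miR-322-5p, and the ovary mean 7153 and 4789 CPM. The adrenal library of rat 8, the ovary library of rat 11, the uterus library of rat 8 and the hippocampus library of rat 6 held 58.9 to 80.9 CPM of miR-322-5p and 42.9 to 68.7 CPM of miR-351-5p. The adrenal and the ovary library among them were far below every other library of the same label.

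The ovary of rat 9 stood apart from the other 3 in the balance of members. It held 6.34 miR-351-5p reads per miR-322-5p read, against 1.18 in rat 7, 1.08 in rat 8 and 1.18 in rat 10. The 3p strand was 26.5% of its miR-322 reads, against 16.0%, 12.7% and 16.7%, and 94.6% of its miR-542 reads, against 83.7%, 86.2% and 85.8%. Its RNA integrity number was 7.5, against 8.1, 8.6 and 8.2, and its miR-202-5p was at 499.6 CPM, against 638, 786 and 726 CPM. Rat 9 also had the highest ratio of miR-351-5p to miR-322-5p of all rats in 7 of its 21 tissues, among them cerebrum at 6.41, kidney cortex at 6.02 and whole blood at 8.14. The part of RNA quality or of the animal in this was not tested.

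The reads of a seed can be shared out among the names that carry it, which asks how much of the seed a cluster member supplied in each tissue. Of all reads with the seed of miR-322-5p, 79.5% lay on miR-16-5p and 6.42% on miR-322-5p. In the ovary, however, miR-322-5p supplied 27.0% in rat 9 and up to 54.6% in the others, a mean of 41.1%, and in the adrenal 18.9% to 42.1%, a mean of 29.7%. Heart came next at 12.5%, with a lowest library of 8.96%, then soleus at 7.68% and biceps femoris at 5.77%. The adrenal and the ovary were above all other tissues in this share without overlap. The heart value was 13.4% without the runs of a lane in which reads carried an extra base, described with the read starts. At the other end, cerebellum had 0.470% and whole blood 0.0306%, where miR-16-5p was at 16006 CPM, against 5947 CPM in adrenal and 5668 CPM in ovary.

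For the seed shared by miR-351-5p with miR-125a-5p and miR-125b-5p, the member was the major source in the adrenal, with 69.9% of the reads on average and 60.2% to 78.3% in single libraries. In the ovary it supplied 43.7%, from 34.0% to 50.1%. Whole blood was the next tissue, at 39.6%, although its level of miR-351-5p was the lowest, with miR-125a-5p at 27.8 CPM and miR-125b-5p at 10.9 CPM beside it. Its lowest value, 14.5%, was that of rat 6, and the other blood libraries were between 37.1% and 49.1%. miR-125a-5p was at a like level in adrenal and ovary, 7238 and 7793 CPM, while miR-125b-5p was at 981 CPM in adrenal and 3836 CPM in ovary. Biceps femoris at 21.0% and testis at 19.8% followed, and cerebellum was lowest at 0.924%. With the left-out libraries the mean share was 63.0% in adrenal and 35.4% in ovary. miR-503-5p supplied 74.2% of the reads of its own seed in adrenal and 73.0% in ovary, but 14.4% over all libraries, where 79.5% lay on reads named miR-16-5p. These 10308 reads differ from the miR-16-5p sequence at the last base of the seed, and 6284835 reads of that name had its usual seed. The 14.4% thus does not show that miR-16-5p carries the miR-503-5p seed. miR-542-3p supplied 93.4% of the reads of its seed over all libraries, with 6.32% on reads named miR-194-5p. Without the runs of the lane, its mean share was 50.5% in jejunum, 58.0% in duodenum and 60.3% in ileum. In the other tissues it was 91.2% (whole blood) to 100% (testis).

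**Figure D2:**
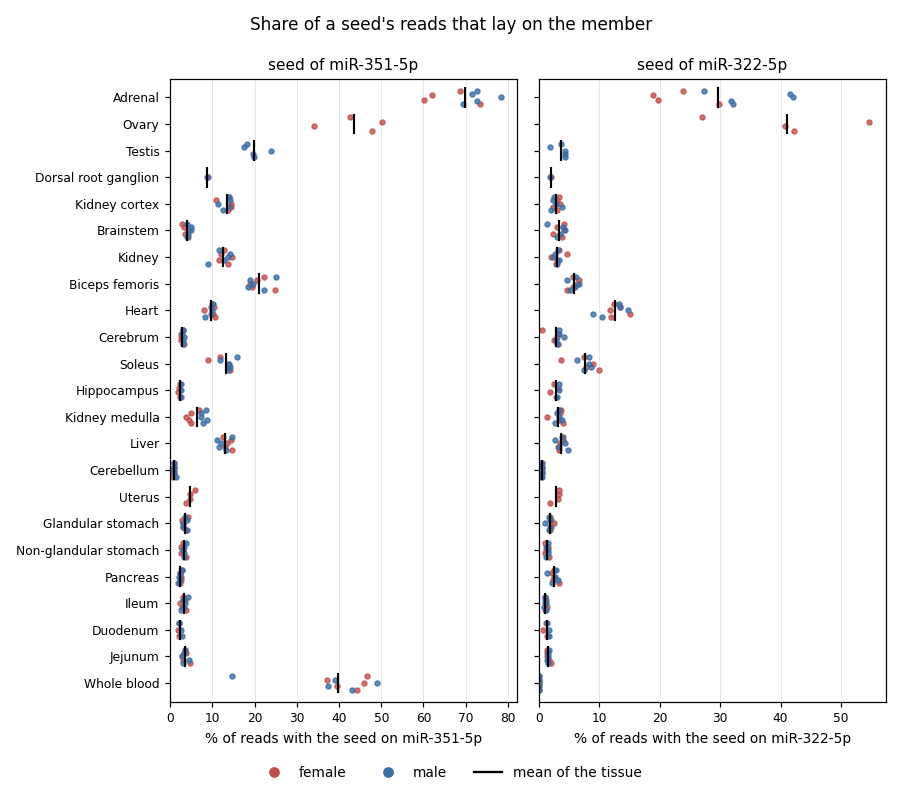
Percent of the reads with the seed of miR-351-5p (left) and of miR-322-5p (right) that lay on the member itself, by tissue, with a point per library coloured by sex and a bar at the tissue mean. Adrenal means of 69.9% and 29.7% and ovary means of 43.7% and 41.1% stand out in both panels, and whole blood is high, at 39.6%, in the left panel alone.

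Members of the cluster did not keep a fixed ratio. The number of miR-351-5p reads per miR-322-5p read was 6.75 ± 1.19 in the adrenal (SD, n = 9), with a range of 4.96 to 8.63, and 0.667 in heart, with a range of 0.542 to 0.846, a 10.1-fold difference between the highest and the lowest tissue mean. No heart library came near an adrenal one. The DRG pools had a mean of 5.60, cerebellum 4.09 and kidney cortex 3.64, while soleus had 1.18, liver 1.11, duodenum 0.723, jejunum 0.776 and pancreas 0.770. The ovary mean of 2.44 ± 2.60 rests on rat 9. miR-542-3p per miR-322-5p differed 10.8-fold, from 0.0345 in heart to 0.374 in the DRG, and miR-450a-5p per miR-322-5p from 0.424 in heart to 1.84 in the DRG. Heart was thus the tissue with the most miR-322-5p relative to each of these 3 neighbours.

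The 2 arms of miR-322 come from the same precursor, and their ratio within a library was not used to choose the members, so that differences of the ratio between tissues were tested. In the DRG pools 40.2% and 45.5% of miR-322 reads were on the 3p arm. Kidney cortex had 31.1% on average, from 24.2% to 37.1%, kidney 30.0%, from 20.9% to 37.2%, and non-glandular stomach 28.9%, from 24.6% to 34.2%. At the low end, soleus had 12.3%, from 9.43% to 15.3%, and heart 10.9%, from 8.84% to 14.5%. Every library of the last 2 tissues was below every kidney, kidney cortex and DRG value.

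Each tissue was then compared with the mean of the other tissues by limma over 92 hairpins with reads on both arms, and 835 of 2116 pairs of hairpin and tissue passed an adjusted p of 0.05, or 39.5%. The miR-322 ratio passed in 14 of 23 tissues, against a median of 9 over hairpins, with more 3p reads in 6 and fewer in 8. The log2 ratio of 3p to 5p was 1.74 higher in the DRG (SE 0.24, adjusted p = 2.93e-10), 0.96 higher in kidney cortex (SE 0.11, adjusted p = 6.36e-14), 0.88 higher in kidney (adjusted p = 5.6e-12) and 0.82 higher in non-glandular stomach (adjusted p = 5e-11). Of all hairpins, 26.1% passed in the DRG, 18.5% in kidney cortex, 25% in kidney and 40.2% in non-glandular stomach. It was also higher, by 0.46 and 0.33, in kidney medulla and whole blood, where 31.5% and 80.4% of hairpins passed. In heart the log2 ratio differed by -1.01 (SE 0.11, adjusted p = 1.31e-15) and in soleus by -0.81 (SE 0.11, adjusted p = 5.39e-11), where 47.8% and 42.4% of hairpins passed. Pancreas, jejunum, ileum, liver, brainstem and hippocampus were lower by smaller amounts, from -0.56 to -0.32. There 57.6% of hairpins passed in pancreas, 39.1% in hippocampus and 44.6% in each of the other 4 tissues. The share of hairpins called was highest in whole blood. The DRG value rests on 2 pools that are assumed to vary like the other tissues. In a fit that also held a term for each rat and had no DRG, the hippocampus did not pass (-0.21, adjusted p = 0.155) and the cerebellum did (0.26, adjusted p = 0.0233). For miR-322, adrenal and ovary, the tissues with the highest levels, did not pass, with a log2 difference of 0.17 (adjusted p = 0.245) and -0.17 (adjusted p = 0.563). miR-351 and miR-450a were also fitted, with only 565 and 672 counts on their 3p strands. miR-351 passed in adrenal (-1.93, adjusted p = 9.88e-08) and duodenum (2.46, adjusted p = 4.13e-08), among others, where 27 and 31 of 92 hairpins passed. miR-450a passed, for instance, in biceps femoris (-1.64) and non-glandular stomach (1.24), where 45 and 37 of 92 passed. With few 3p reads, these ratios follow the 5p count and the pseudocount.

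**Figure D3:**
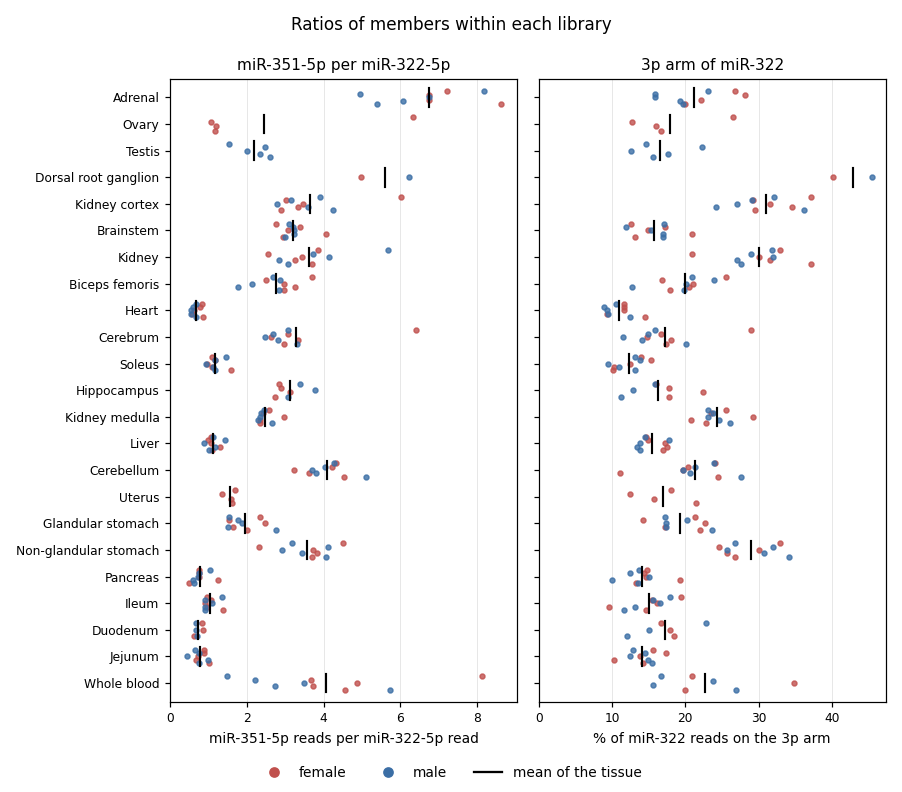
Reads of miR-351-5p per read of miR-322-5p (left) and percent of miR-322 reads on the 3p arm (right), by tissue, with a point per library coloured by sex and a bar at the tissue mean. The left panel runs from 0.667 in heart to 6.75 in adrenal, with the ovary of rat 9 at 6.34 far from the other 3, and the right panel from 10.9% in heart to 42.9% in the dorsal root ganglion.

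miR-542 entered this test only once whole blood, with few miR-542 reads, was left out, a choice made after seeing the data. It then passed in 6 of 22 tissues, with 39.4% of all pairs passing. Its 3p arm held 87.6% of the reads in ovary (83.7% to 94.6%), 81.8% in testis and 81.5% in liver. Soleus, at 57.2%, and biceps femoris, at 62.1%, were the lowest. The log2 ratio of 3p to 5p was 1.30 higher in ovary (SE 0.22, adjusted p = 1.42e-06), 0.50 higher in liver and 0.49 higher in testis. In soleus it differed by -1.33 (adjusted p = 7.98e-16), in biceps femoris by -1.03 and in non-glandular stomach by -0.74. miR-322 and miR-542 thus did not share the tissues with the highest 3p share, since the DRG and the kidney led for miR-322 and the ovary for miR-542. miR-503 had too few reads on both arms for the test, and 78.4% (ovary) to 95.2% (liver) of its reads were on the 3p arm in the 17 tissues with a value.

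The read sequences themselves show where each strand begins and ends. Some are printed as examples of an added base, another end or a shifted start, with the bases 2 to 8 of the read in capitals, and each is given with its share of the reads of that strand. The first 2 are miR-322-5p, at 58.0% and 27.9%. The next 2 are miR-322-3p, at 50.8% and 6.90%, the last of them starting 2 bases upstream. miR-351-5p, at 41.1%, most often ended 2 bases before the RefSeq end. miR-542-3p follows at 36.9%, and miR-503-3p at 37.9% and 9.09%, the last starting 1 base downstream.
miR-322-5p, most counted: cAGCAGCAattcatgttttgga
miR-322-5p, with added T: cAGCAGCAattcatgttttggat
miR-322-3p, most counted: aAACATGAagcgctgcaacact
miR-322-3p, upstream start: cAAAACATgaagcgctgcaaca
miR-351-5p, most counted: tCCCTGAGgagccctttgagcct
miR-542-3p, most counted: tGTGACAGattgataactgaaagt
miR-503-3p, most counted: gGAGTATTgtttccgctgcctgg
miR-503-3p, downstream start: gAGTATTGtttccgctgcctgg

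A shifted start changes the seed, so the starts of the members were counted. The 5p guides kept the RefSeq start in nearly all reads, with 96.6% for miR-322-5p, 98.4% for miR-351-5p and 97.7% for miR-450a-5p. The 3p strands were more variable. miR-322-3p kept it in 80.3% of reads, with 11.9% starting 2 bases and 7.14% starting 1 base upstream, and miR-503-3p in 66.7%, with 31.3% starting 1 base downstream. These values leave out 14 runs of 1 lane of 1 flow cell, in which many reads carried an extra base in front. In these runs 16.1% to 24.1% of miR-322-5p reads had the usual start, against 81.5% to 100% in the other 409 runs. No adrenal or ovary library was sequenced in that lane.

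At the other end, reads with 1 T that the hairpin does not hold were frequent for some members. Such a base is usually added to a finished strand by a terminal uridylyltransferase. The T was found on 58.0% of miR-322-3p reads, 45.1% of miR-542-3p reads, 28.8% of miR-322-5p reads and 12.1% of miR-351-5p reads. On miR-503-3p an added A, on 21.6% of reads, was more frequent than an added T, on 7.37%. miR-542-5p at 1.61%, miR-503-5p at 1.11% and miR-450a-5p at 0.247% had few. Strands of the same hairpin could therefore differ widely, as miR-542-3p and miR-542-5p did.

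The share of miR-322-5p reads with an added T was 47.5%, 42.7%, 43.9% and 43.1% in the ovaries of rats 7, 8, 9 and 10, and lay between 13.2% and 23.7% in the adrenal. The means were 44.3% and 18.3%, and no library of the 2 organs overlapped. miR-322-3p had 71.6% in ovary (70.3% to 72.5%) and 50.1% in adrenal (45.2% to 52.9%), and miR-542-3p 63.9% (60.2% to 67.0%) and 37.4% (33.4% to 41.5%). miR-351-5p had 19.0% (15.6% to 20.9%) and 10.6% (9.05% to 12.0%), and miR-503-3p 11.1% and 4.71%. Rat 9, which stood apart in the ratios, was close to the other ovaries here, with 43.9% for miR-322-5p. Ovary and adrenal did not overlap, with the ovary higher, for 6 of 7 members with enough reads, against 46 of 189 names, or 24.3%, while 1 name was lower. A gap between these organs was thus also seen in single names other than the members. Over the reads of all names with a RefSeq hairpin together, the share with an added T was 14.7% in ovary (14.3% to 15.8%) and 2.57% in adrenal (2.42% to 2.74%). This pooled share weighs each name by its reads, so it also follows which names are abundant. miR-143-3p, for instance, was at 338398 CPM in ovary and 16107 CPM in adrenal. The median difference of single names was 8.44 percentage points for the members and 0.978 percentage points over all names. With the left-out libraries 1 of 4 members with enough reads did not overlap, against 6 of 144 names, with the ovary higher. There the ovary of rat 11 had 21.5% of 107 miR-322-5p reads with an added T and the adrenal of rat 8 had 34.0% of 141. This comparison was chosen after seeing the data and is given with no test.

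**Figure D4:**
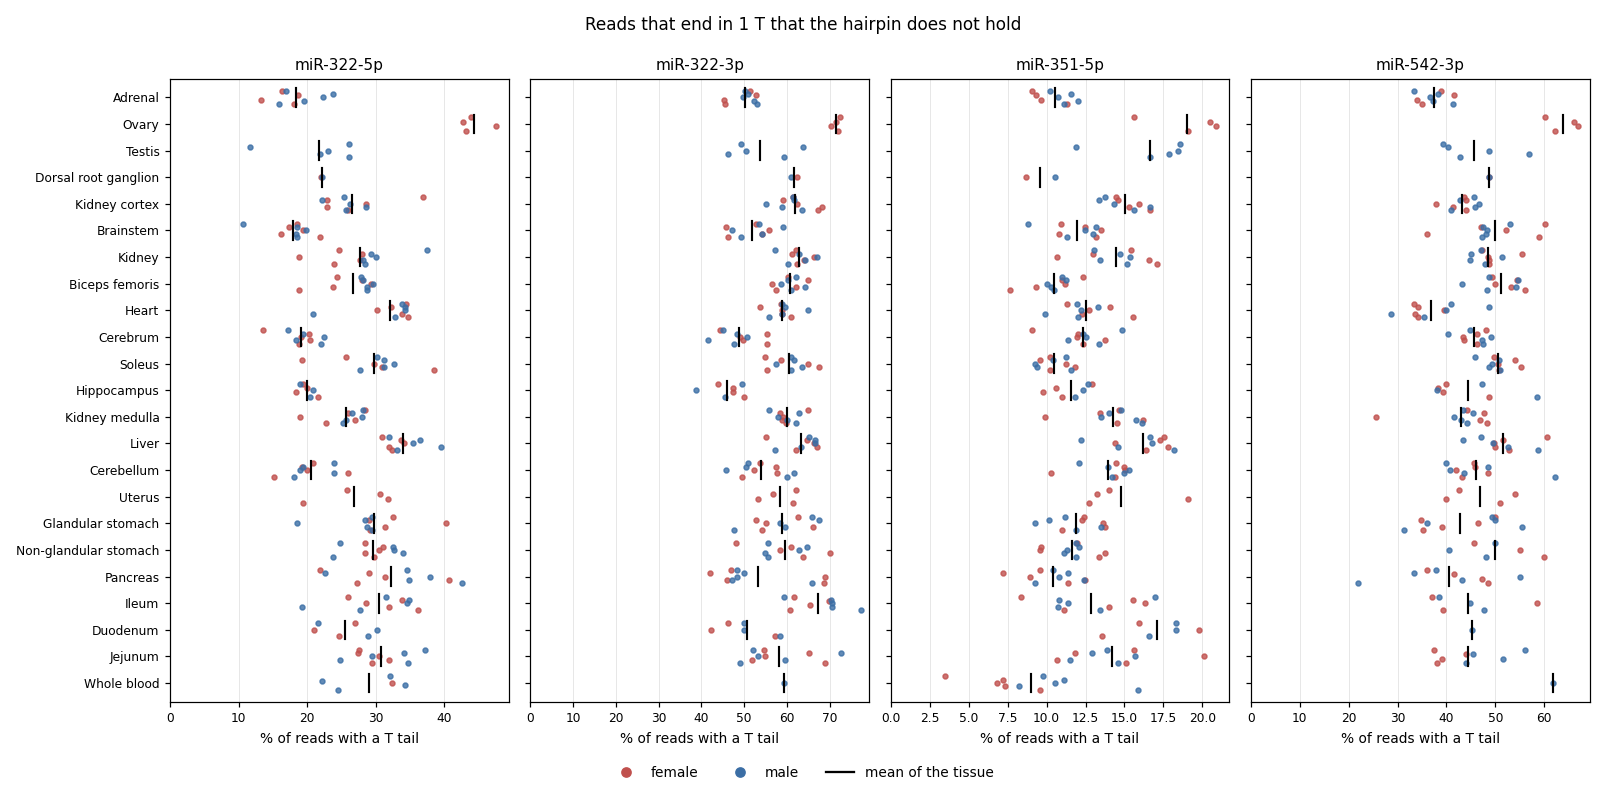
Percent of the reads of miR-322-5p, miR-322-3p, miR-351-5p and miR-542-3p that ended in 1 T not held by the hairpin, by tissue, with a point per library of at least 20 reads coloured by sex and a bar at the tissue mean. The ovary has the highest mean in each panel, for instance 44.3% for miR-322-5p, while the adrenal is at 18.3% there.

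The ovary had the highest mean of the 23 tissues for the added T on each of these 4 strands, but its libraries often overlapped with others. For miR-322-3p ileum reached 77.3% and jejunum 72.7%, above the highest ovary at 72.5%. For miR-351-5p jejunum reached 20.1% and duodenum 19.8%, within the ovary range of 15.6% to 20.9%. For miR-542-3p cerebellum reached 62.3%, above the lowest ovary at 60.2%. Whole blood had 1 library with enough reads for miR-322-3p and for miR-542-3p. For miR-322-5p liver followed at 33.9%, the median of tissues was 26.9% and brainstem was lowest at 17.9%. For miR-322-3p the median was 59.0% and hippocampus was lowest at 46.1%. For miR-542-3p the median was 45.7% and heart was lowest at 36.9%. These shares keep the runs of the lane in which reads carried an extra base. The lowest brainstem value for miR-322-5p, 10.7% in rat 6, came from a library sequenced in part in that lane. So did the lowest heart value for miR-542-3p, 28.6% in rat 3. The adrenal means were close, at 18.3% and 37.4%, so which tissue was lowest for these strands is uncertain. The adrenal, with the highest level of the cluster, was below the median of tissues for all 4 strands.

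As a description of how alike the members were, Pearson's r of log2(mean CPM + 1) with miR-351-5p was computed over the 23 tissues. It was 0.97 for miR-542-3p, miR-542-5p and miR-503-3p, 0.96 for miR-322-3p, 0.95 for miR-450a-5p, 0.92 for miR-322-5p and 0.88 for miR-503-5p. Of the names outside the member rule, miR-151-3p and miR-424-5p were the most alike at 0.73, followed by miR-30c-1-3p at 0.72 and miR-99b-3p and miR-99b-5p at 0.71. The name miR-424-5p is that of the human counterpart of miR-322 and held 501 counts in all, which may come from the same hairpin. Within tissues, the median r over the 28 pairs of 8 members was 0.47, from 0.22 to 0.79, against 0.10 over all pairs of 361 names, in 195 libraries. The points share libraries and their totals.

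Females and males were compared within each of 19 tissues with edgeR over 1225 names, a contrast that the choice of members did not use. Among 209 pairs of member and tissue, 5 were lower in females and 0 higher, where 0.872% of all pairs of name and tissue passed in either direction and 0.473% were lower in females. The log2 difference, female over male, was below 0 in 131 of 209, with a median of -0.11 for members and 0 for all names. Members vary together and the tissues come from the same rats, so these pairs are not independent. In the adrenal, miR-322-5p was at 1875, 1977, 2219 and 2474 CPM in the 4 females and at 2507, 3637, 3757, 4165 and 4614 CPM in the 5 males. The groups did not overlap, but the lowest male was close to the highest female, and RNA integrity numbers were alike, 8.8 to 9.9 in females and 8.7 to 9.1 in males. The log2 difference was -1.0 (SE 0.27, adjusted p = 0.0493 by edgeR), where 0.735% of names passed. The call was near the threshold and was lost in 13 of 18 alternatives, among them the removal of any 1 of 9 rats, with adjusted p from 0.00216 to 0.419. miR-351-5p was at 12646, 13359.5, 16012 and 21358 CPM in females and at 20246, 20534, 22079, 22877 and 28132 CPM in males, so that 1 female was above 2 of the males, and the adjusted p by edgeR was 0.389. miR-322-3p, at 561 to 813 CPM in females and 755 to 923 CPM in males, had an adjusted p of 0.663.

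In whole blood, miR-322-5p was at 1.21, 1.90, 3.19, 3.25 and 4.04 CPM in females and at 2.19, 4.93, 5.50, 6.24 and 25.2 CPM in males. The groups overlapped in 1 male, and the highest male, rat 6, stood far from the rest. The log2 difference was -1.52 (SE 0.28, adjusted p = 2.37e-05 by edgeR). miR-450a-5p (-1.30, adjusted p = 0.000333), miR-322-3p (-1.10, adjusted p = 0.00642) and the composite miR-450a-5p entry (-2.36, adjusted p = 0.00298) also passed by edgeR, the last on 4 counts in females and 25 in males in all. miR-351-5p, at -0.64, had an adjusted p of 0.101. Of all names, 8.33% passed in whole blood and 5.55% were lower in females. Without the blood library of rat 6, left out after seeing the data, miR-322-5p was the only member called in whole blood, with a log2 difference of -1.11 and an adjusted p of 0.00904 by edgeR. The RNA integrity number of the blood libraries was 7.4 to 7.7 in females and 8.0 to 8.4 in males without overlap, and its part in the difference was not tested. With the 10 left-out libraries included, 19 pairs of member and tissue were called higher in females and 0 lower. Over all names 158 pairs were then called higher and 160 lower. The libraries added include those labelled duodenum of rat 11 and hippocampus of rat 7, both females, with 13454 and 5162 CPM of miR-351-5p. Their part in the 19 calls was not tested.

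**Figure D5:**
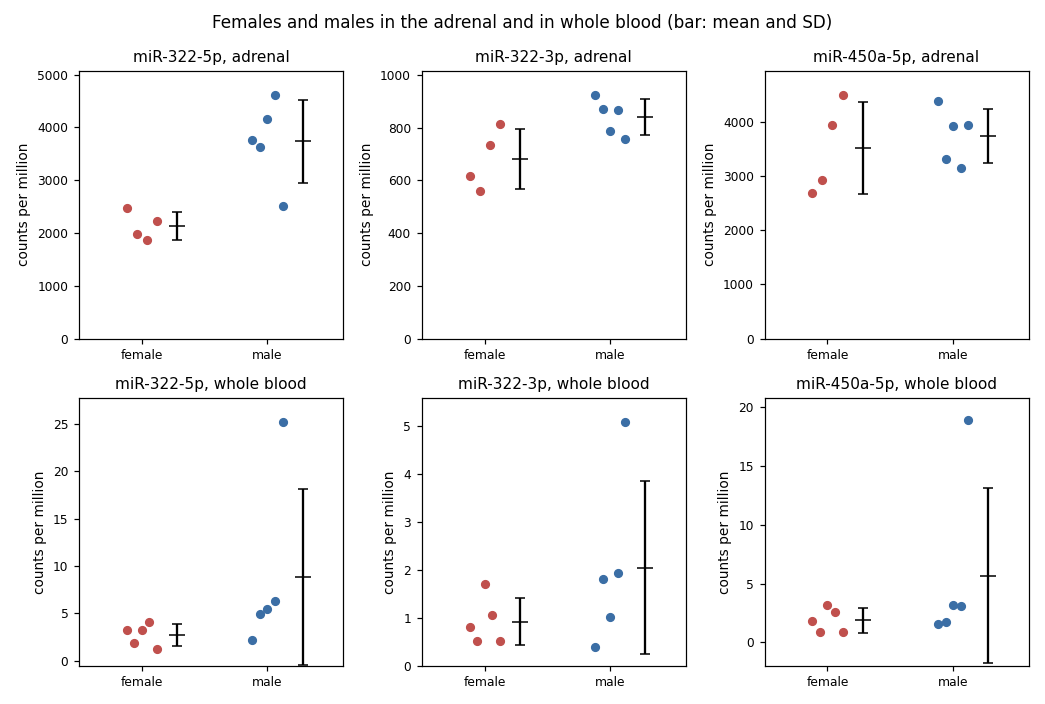
Level of miR-322-5p, miR-322-3p and miR-450a-5p in CPM in females and males of the adrenal (top) and of whole blood (bottom), with a point per library and a bar for mean and SD. In the adrenal 4 females of miR-322-5p lie below the 5 males, and in whole blood the male at 25.2 CPM sets most of the spread.

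The sex difference was unequal between tissues, by edgeR's test of tissue and sex together, for 1 of 11 members, miR-322-5p (adjusted p = 0.0496), and for 13.3% of all names. Over the 16 tissues that all rats had in common, the mean log2 level of miR-322-5p was 6.89 to 7.19 in females and 7.04 to 7.40 in males, and the ranges overlapped. The difference was -0.20 (SE 0.08, adjusted p = 0.467 by limma). All 8 members tested there had a difference below 0, from -0.20 to -0.08, as had 52.4% of all 790 names. The 8 come from neighbouring hairpins and vary together, so they are not separate observations of a sex difference. No name passed the adjusted threshold, at 0% of names, while 75 names, 3 of them members, had an unadjusted p below 0.05 by limma.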

How the data were processed

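Small RNA libraries (Illumina TruSeq, total RNA by miRNeasy) were sequenced by the authors, who trimmed adaptors (cutadapt 1.4.1 per the submitters' processing notes) and deposited raw counts per miRNA name and per isomiR sequence for each run, without normalization. Reads had been assigned to known and predicted miRNAs with miRDeep2, per the study's methods. Runs (458) were summed per library. For 14 runs the label repeats a lane that another run already gives, and they were set aside, and 0 columns belonged to no sample of the series.

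CPM, seed, start and tail shares were computed with Python 3.11.15 (pandas 2.3.3, numpy 2.4.6). A seed was bases 2 to 8, a read was placed by 12 matching bases of the RefSeq hairpin, and start or tail shares needed 20 reads. Sex within tissues was tested with the edgeR 4.0.16 quasi-likelihood test on upper-quartile scaled counts, sex over tissues and the arm log2 ratio (pseudocount 0.5, 20 reads on both arms) with limma 3.58.1 in R 4.3.3. P-values were Benjamini-Hochberg adjusted over all names, or over all hairpins within a tissue for the arm ratio, with a threshold of 0.05. For sex within a tissue and over tissues they measure the spread between rats. The main arm test and the test of tissue and sex together held no term for the rat. Their p-values measure the spread between libraries within groups, with tissues of the same rats treated as separate. Named were the members with a mean of at least 1 CPM in a tissue, and the 5 most alike names outside the member rule. DESeq2 1.42.0, TMM, other filters and left-out rats were alternatives. The code was tested on simulated data. The rat pairs the tissues: the median correlation of residual arm ratios was 0.0099 between tissues of the same rat and -0.0031 between those of different rats. The members and lists were chosen with earlier results of these data known.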

Additional observations from a re-analysis of the deposited data

Results flagged for a closer look

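Among the groups of 4 to 10 libraries, 66 groups of a member and a tissue were examined for a single library far from the rest, and 6 held one, where chance alone gives about 1 in 20. Of these, 3 were the whole blood library of rat 6, in which miR-322-5p was at 25.2 CPM (next highest 6.24 CPM), miR-322-3p at 5.08 CPM (next 1.94 CPM) and miR-351-5p at 37.4 CPM (next 19.2 CPM). The hippocampus of rat 11 had the lowest miR-322-5p, at 121 CPM. The heart of rat 10 had the highest miR-322-3p, at 199 CPM. The kidney cortex of rat 9 had the highest miR-351-5p, at 1333 CPM.

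The sex difference of miR-322-5p was unequal between tissues, with an adjusted p of 0.0496 by edgeR's test of tissue and sex together.

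Among the left-out libraries, the one labelled duodenum of rat 11 held 13454 CPM of miR-351-5p and 2350 CPM of miR-322-5p, where the other duodenum libraries used were at 39.1 to 65.1 and 59.1 to 80.2 CPM. The one labelled hippocampus of rat 7 held 5162 CPM of miR-351-5p, 5496 CPM of miR-322-5p and 414 CPM of miR-202-5p, where the hippocampus libraries used were at 380 to 735 CPM of miR-351-5p and 121 to 224 CPM of miR-322-5p. The libraries labelled duodenum of rats 2, 4 and 7 held 605, 657 and 370 CPM of miR-351-5p.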

How the results depend on the processing

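For 49 results, 787 alternative values were computed. Of these, 746 kept direction and side of the threshold, or moved by less than the spread or, for counts of calls, less than a set fold. Another 33 lost the threshold, 8 moved further and 0 were labelled as a change of direction. Counts of calls could not get that label, although the member sex calls turned from lower to higher in females with all libraries. The number of pairs called lower in females, 5, was 3 with no filter on low counts, 2 without the blood library of rat 6 (chosen after seeing the data), 0 with all libraries, and 1 to 7 when each rat was left out in turn, the lowest without rat 6 and 3 without rat 3. The number called higher, 0, was 19 with all libraries, beside 158 over all names, and 0 in each case with 1 rat left out. In the adrenal, miR-322-5p lost the threshold in 13 of 18 alternatives. In whole blood it did so in 1, miR-322-3p in 5, and miR-450a-5p and the composite entry in 3 each, and all 4 did so with all libraries and, but for miR-322-5p, without rat 6 (miR-322-3p also without rat 3). The arm call of miR-322 was lost in hippocampus in 5 of 17 alternatives, among them without rats 3, 4, 5 or 9, and in whole blood in 3, among them without rats 3 or 7. Calls over all names and tissues, 203, were 970 with no filter, 452 by DESeq2, 320 with library totals, 318 with all libraries and 127 to 310 with 1 rat left out. The share of its seed on miR-351-5p was 63.0% in adrenal and 35.4% in ovary with all libraries. With the rat as a replicate block, which pairs tissues of an animal, the miR-322 arm ratio was higher in 6 and lower in 7 tissues without the DRG, the cerebellum gaining and the hippocampus losing its call, and no other call changed. The depth limits whole blood (7 to 159 counts of miR-322-5p) and testis.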
